A study of Mus musculus with 6 samples.

Results

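The genes described here are the RNA 3'-terminal phosphate cyclase gene Rtca, the genes of the tRNA ligase complex around Rtcb, and genes that act on the same RNA substrates. They comprise 9 of the 18058 genes in a table of brainstem transcripts from wild type (WT) and Rag1-/- mice, and were taken by gene symbol: Rtca, Rtcb, Ddx1, Fam98a, Fam98b, Zbtb8os, Xbp1, Ern1 and Tsen34. The set was chosen by the WT against Rag1-/- difference of Rtca itself and then filled with genes of related function, with earlier results of these data known. The genotype differences of the 9 genes are therefore given as a description, without p-values. RNA was taken from snap-frozen brainstems of naive mice, 3 C57BL/6J animals (WT) and 3 animals of the strain B6.129S7-Rag1tm1Mom/J (Rag1-/-), which carry a constitutive targeted allele of a recombinase gene and lack mature T and B cells. The methods describe RNA extraction from mice 1 month old in a passage on both PCR and sequencing, and no age is given for these 6 mice alone.

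Some RNAs are cut and joined again as part of their normal making. The tRNA splicing endonuclease, of which Tsen34 encodes a catalytic subunit, cuts introns out of precursor tRNAs and leaves a cyclic phosphate on the upstream piece. RTCB is the ligase that joins the pieces. DDX1, FAM98A and FAM98B are proteins of its complex, and archease, the product of Zbtb8os, restores the ligase for further rounds. RTCA works at the same kind of end, since it converts a 3' phosphate into a cyclic phosphate. The complex has a second well known substrate. When unfolded proteins build up in the endoplasmic reticulum (ER), IRE1, encoded by Ern1, cuts Xbp1 mRNA at a pair of stem-loops, and RTCB joins the outer pieces, so that the transcription factor XBP1 is read in another frame. In injured neurons, RTCA is known as a brake on Xbp1 mRNA splicing and on axon regrowth.

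The sequence that IRE1 and RTCB remove is shown because the values here do not tell the 2 forms of Xbp1 mRNA apart. It was found by a search of the longest reference transcript of Xbp1 (2129 bases) for the IRE1 loop CNGCNGN (N is any base) closed by a stem of 4 base pairs. Of 23 matches to the loop on the transcript's strand, 2 had such a stem, and their starts lay 26 bases apart. The removed bases, 815 to 840 of the transcript, are in capitals with 15 bases on each side.
Xbp1: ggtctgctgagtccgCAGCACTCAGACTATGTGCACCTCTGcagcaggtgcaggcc

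The 250 bases before the RefSeq start of Rtca (chr3:116508176-116508425, minus strand, GRCm38.p6) are shown because Rtca is the gene on which the set rests. The single CCAAT box, on the opposite strand, is in capitals.
Rtca: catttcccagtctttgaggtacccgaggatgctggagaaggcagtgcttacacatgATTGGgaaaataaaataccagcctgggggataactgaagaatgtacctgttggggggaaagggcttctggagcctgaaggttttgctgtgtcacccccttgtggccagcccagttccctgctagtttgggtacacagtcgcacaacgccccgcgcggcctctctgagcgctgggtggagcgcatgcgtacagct

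Promoter windows from RefSeq (250 bases before to 50 after a start, both strands searched) were held for 8 of the 9 genes, 9 windows in all. Rtcb had none. CCAAT was found in 1 of the 9 windows, that of Rtca, and in 37.4% of all 32851 promoter windows. The ER stress element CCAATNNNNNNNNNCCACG, which contains CCAAT, was in 0 of the 9 windows and in 0.119% of all. The element TGACGTGG was also in 0 of the 9 and in 0.676% of all. These are matches of letters only.

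Values are in CPM, the counts of a gene per 1000000 reads of its library. The step between low values gave an estimated depth of 31300000 to 46200000 reads per library. The test across genes was limma-trend on log2(CPM + 0.1) over the 16762 genes whose mean reached 0.1 CPM, with Benjamini-Hochberg adjustment. The added 0.1 understates the change of low genes, most of all for those near 0.1 CPM. All 9 genes passed that filter. The libraries held brainstem transcripts: Slc17a6, of excitatory neurons, was at 205 to 264 CPM and the myelin gene Mbp at 7193 to 11199 CPM, while Emx1 of the forebrain did not exceed 0.165 CPM. The Hox genes of the hindbrain varied, and the summed level of 4 of them was 1.08 CPM in Rag1-/- replicate 2 and 6.97 to 24.4 CPM in the other libraries. The 3 pituitary hormone genes summed to 646 CPM in WT replicate 3, 55.5 CPM in WT replicate 2 and at most 4.88 CPM elsewhere, and cerebellar granule cell genes were also highest in WT replicate 3. Xist was over 100 CPM in WT replicates 1 and 2 only, so that WT replicate 3 and the Rag1-/- libraries share one sex and the other WT libraries have the other. Rag1 transcripts themselves were higher in the libraries labelled Rag1-/- (2.60 to 4.02 CPM) than in WT (0.115 to 0.388 CPM). The targeted gene thus goes against a simple loss of transcript, gene-level values do not show which part of it was read, and every direction below rests on the labels. In whole tissue, fewer cells of a type and less RNA per cell cannot be told apart.

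Rtca separated the genotypes, with a mean in the libraries labelled Rag1-/- of 0.674 times that in WT. WT replicates 1, 2 and 3 held 40.2, 39.0 and 37.7 CPM of Rtca (chr3:116488964-116508175, minus strand, mm10). Those labelled Rag1-/- held 26.3, 26.5 and 25.99 CPM. The groups did not overlap, and the lowest WT library lay well above the highest Rag1-/- library. The means were 38.9 ± 1.25 CPM in WT and 26.3 ± 0.261 CPM in Rag1-/- (SD, n = 3), a log2 difference of -0.57 (SE 0.047). About 830 to 1800 reads stand behind each of these values, which gives a counting error of 2.36% to 3.47%. The spread between libraries was 3.22% of the mean in WT and 0.995% in Rag1-/-, the latter less than counting alone would give, so the closeness of the 3 Rag1-/- values says little. WT replicate 3, the 1 WT library with low Xist and the one with most pituitary transcripts, was at 1.44 times the Rag1-/- mean, and the part of sex or of pituitary tissue was not tested. A term in the fit for high Xist leaves WT replicate 3 as the only WT library behind the genotype difference, here and wherever that term is named, and restates this ratio as a log2 difference of -0.52. Without WT replicate 3 the log2 difference was -0.59. Of all 16762 tested genes, 373 had a lower log2 difference than Rtca, and 96 did so among the 14033 whose mean reached 1 CPM.

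**Figure D1:**
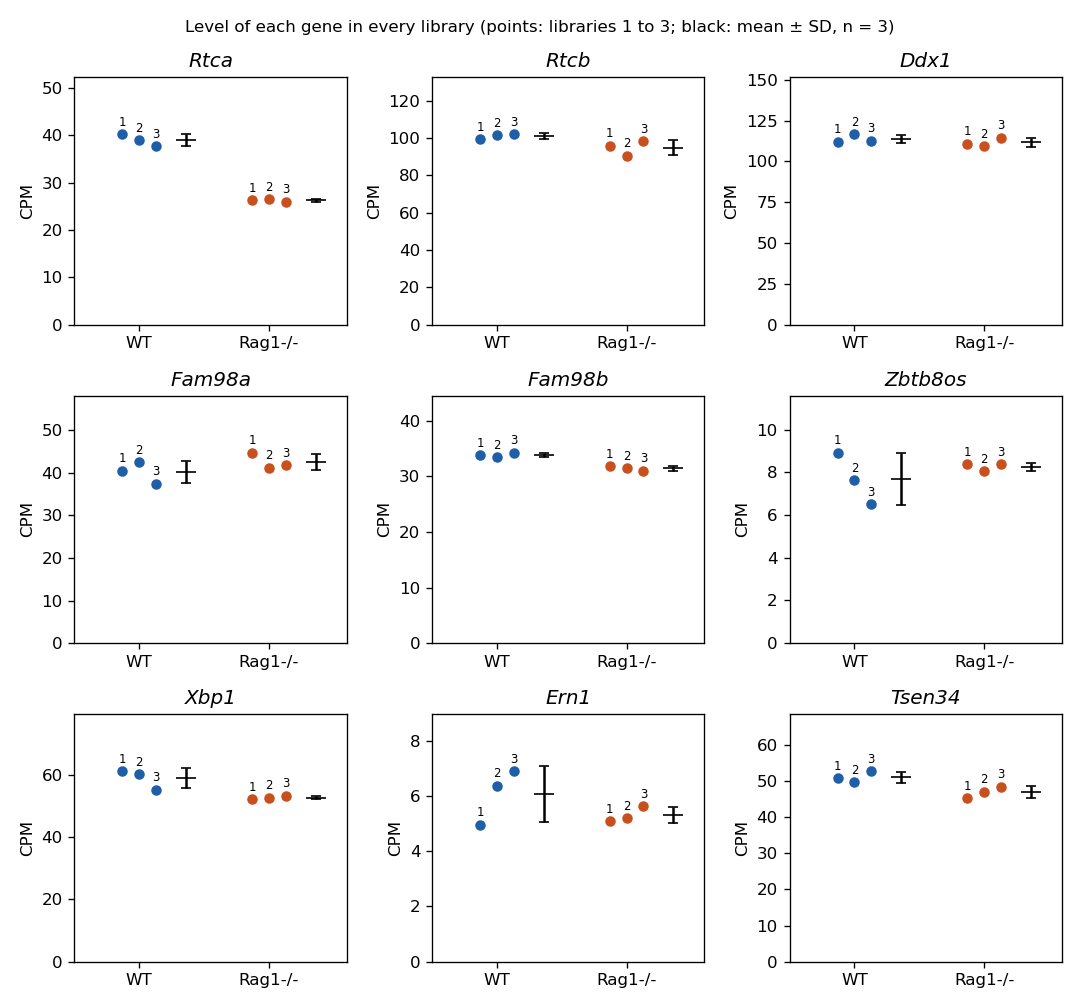
CPM (vertical axis, from 0) of the 9 genes in each WT (blue) and Rag1-/- (orange) library, with replicate numbers above the points and the mean ± SD (n = 3) in black. Rtca shows the widest gap between the groups, 37.7 to 40.2 CPM against 25.99 to 26.5 CPM, and Ddx1, Fam98a, Zbtb8os and Ern1 overlap.

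By the test across all genes, Rtca alone of the 9 (1 gene) passed an adjusted p of 0.05 in limma-trend, the gene for which the set was chosen, against 0.0477% of all tested genes (8 genes, 6 of them lower in Rag1-/-). In 5 of the 9, all 3 libraries labelled Rag1-/- were below all 3 WT libraries, as in 14.4% of all tested genes, and in 0 of the 9 all were above, as in 3.98% of all. Rtca passed in 11 of 16 alternative fits, and not with the replicate block, without the trend, with ordinary per-gene variance, without Rag1-/- replicate 1 or without Rag1-/- replicate 3. Nothing is read from these counts, since the set was built on this contrast. They also depend on how the libraries are scaled. After rescaling by the median of ratios, 7.74% of tested genes lay below and 7.96% above, and 3 of the 9 genes lay below, which were Rtca, Fam98b and Xbp1. The median log2 difference was -0.10 over the 8 genes other than Rtca and -0.05 over all tested genes.

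The ligase and its helicase differed little. Rtcb (chr10:85938637-85957793, minus strand), the ligase, was at 99.2, 102 and 102 CPM in WT against 95.9, 90.5 and 98.2 CPM in libraries labelled Rag1-/-. All Rag1-/- libraries were lower, with 99.2 against 98.2 CPM as the nearest values, and the log2 difference was -0.09 (SE 0.044). It was -0.06 without Rag1-/- replicate 2 and -0.05 after median-of-ratios rescaling. The gene model Gm48175 overlaps Rtcb. Ddx1 (chr12:13219307-13249174, minus strand), the DEAD-box RNA helicase of the complex, was at 112, 117 and 113 CPM in WT and at 111, 110 and 115 CPM in Rag1-/-. Its groups overlapped. The log2 difference of Ddx1 was -0.03 (SE 0.040), with -0.0095 without WT replicate 2, -0.013 without Rag1-/- replicate 2 and -0.05 without Rag1-/- replicate 3. Its sign turned with both other scalings, to 0.014 after median-of-ratios rescaling and 0.0046 after quantile normalization.

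The FAM98 subunits lay on either side of 0. Fam98a (chr17:75537086-75551946, minus strand) was at 40.5, 42.5 and 37.4 CPM in WT and at 44.7, 41.2 and 41.8 CPM in Rag1-/-, with a log2 difference of 0.09 (SE 0.060). Its groups overlapped, and WT replicate 3 was the lowest library. The log2 difference of Fam98a was 0.04 without that library, 0.05 without Rag1-/- replicate 1 and 0.19 with a term for high Xist. Fam98b (chr2:117249739-117271540, plus strand) was at 33.8, 33.5 and 34.3 CPM in WT and at 31.9, 31.4 and 31.1 CPM in Rag1-/-. All Rag1-/- libraries were lower, by little: the log2 difference was -0.11 (SE 0.044), and -0.06 after median-of-ratios rescaling. Fam98b is the only one of the 9 genes on the chromosome of Rag1, and their lower coordinates lie 15.6 Mb apart. Zbtb8os (chr4:129336026-129347029, plus strand), which encodes archease, was at 8.92, 7.62 and 6.52 CPM in WT and at 8.38, 8.05 and 8.37 CPM in Rag1-/-. The Rag1-/- values lay inside the WT range, and the log2 difference was 0.11 (SE 0.11). It was 0.0027 without WT replicate 3, 0.23 without WT replicate 1 and 0.34 with a term for high Xist.

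Of the genes that make or cut the substrates, Tsen34 and Xbp1 were lower in all 3 libraries labelled Rag1-/-. Tsen34 (chr7:3693610-3701035, plus strand) was at 50.9, 49.8 and 52.9 CPM in WT and at 45.3, 47.1 and 48.5 CPM in Rag1-/-, a log2 difference of -0.12 (SE 0.047), and of -0.08 after median-of-ratios rescaling. The RefSeq gene Mboat7 overlaps it, and whether counting used strand is not given in the sources used here. Xbp1 (chr11:5520641-5525993, plus strand) was at 61.2, 60.2 and 55.2 CPM in WT and at 52.1, 52.7 and 53.3 CPM in Rag1-/-. WT replicate 3 lay nearer to the Rag1-/- libraries than to the other WT libraries. The log2 difference of Xbp1 was -0.16 (SE 0.050), -0.20 without WT replicate 3, and -0.07 with a term in the fit for high Xist. Both the form that IRE1 has cut and the form that it has not are counted in these values. Ern1 (chr11:106397620-106487796, minus strand), the sensor that cuts Xbp1 mRNA, was low, at 4.96, 6.38 and 6.90 CPM in WT and at 5.08, 5.20 and 5.64 CPM in Rag1-/-. WT replicate 1 was the lowest library of all, so the groups overlapped. The log2 difference of Ern1 was -0.18 (SE 0.13), -0.32 without WT replicate 1, -0.08 without WT replicate 3 and -0.37 with the term for high Xist.

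The ratio of Rtca to its partners does not depend on how a library is scaled, and is given as a description, since Rtca was chosen for its own difference. The ratio of Rtca to Rtcb CPM was 0.405, 0.383 and 0.370 in WT replicates 1, 2 and 3, and 0.274, 0.293 and 0.265 in the libraries labelled Rag1-/-. The mean ratio was 0.386 ± 0.0179 in WT and 0.277 ± 0.0144 in Rag1-/- (SD, n = 3), which is 0.718 of the WT value. Against the geometric mean of the 8 other genes, Rtca stood at 1.12 ± 0.0344 in WT and 0.787 ± 0.0222 in Rag1-/- (SD, n = 3), or 0.703 of the WT value. That geometric mean itself was 34.3 to 35.4 CPM in WT and 32.8 to 34.0 CPM in Rag1-/-.

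**Figure D2:**
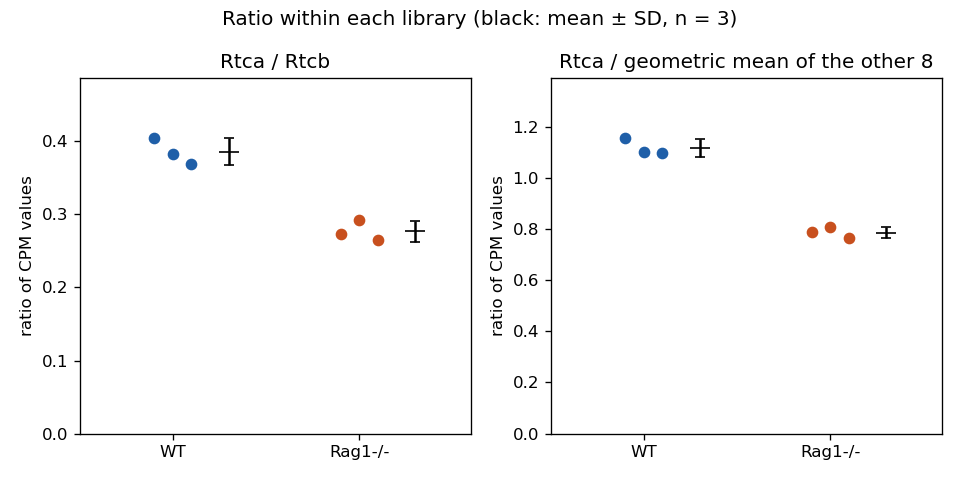
Ratio of Rtca CPM to Rtcb CPM (left) and to the geometric mean CPM of the other 8 genes (right) in each library, with the mean ± SD (n = 3) in black and axes from 0. Each WT library lies above each Rag1-/- library in both panels, at 0.370 to 0.405 against 0.265 to 0.293 for Rtca to Rtcb.

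Levels of different genes were compared as CPM per kb of the longest reference transcript that has a RefSeq match. In WT, Rtcb led with 50.2 ± 0.754 CPM per kb (SD, n = 3), followed by Tsen34 at 28.8 ± 0.878 and Xbp1 at 27.7 ± 1.51 CPM per kb. Rtca was in place 4 of 9 at 24.4 ± 0.786 CPM per kb, ahead of Ddx1 at 23.5 ± 0.508 CPM per kb. The WT ranges of Tsen34 and Xbp1 overlapped, as did those of Rtca and Ddx1, so neither pair can be ordered, whereas no other neighbours in the order overlapped. Fam98b (18.2 CPM per kb) and Fam98a (14.2 CPM per kb) followed, and the archease gene Zbtb8os (2.01 CPM per kb) and Ern1 (0.875 CPM per kb) lay far below. In the libraries labelled Rag1-/-, Rtca was in place 6, at 16.5 ± 0.164 CPM per kb, after Ddx1 (23.1 ± 0.552 CPM per kb) and Fam98b (16.9 ± 0.221 CPM per kb). The other 8 genes kept their order among themselves. With the shortest RefSeq-matched transcript, Tsen34 moved from 27.6 to 39.6 CPM per kb over all libraries and stayed in place 2.

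**Figure D3:**
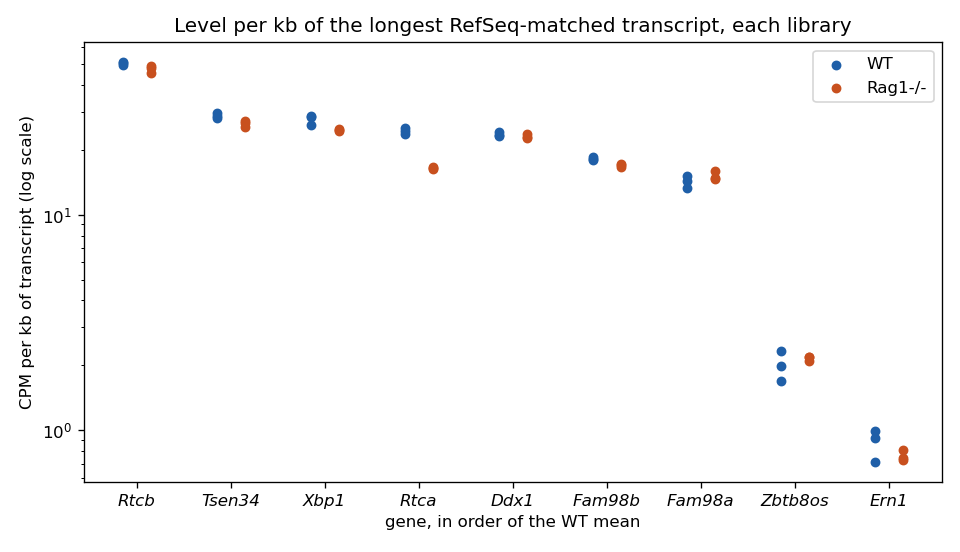
Level of the 9 genes in CPM per kb of transcript (log scale) in each WT (blue) and Rag1-/- (orange) library, ordered by the WT mean. Rtcb is highest, at 45.1 to 50.7 CPM per kb, and Rtca is the gene whose groups lie farthest apart, at 23.6 to 25.2 against 16.3 to 16.6 CPM per kb.

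Other genes of the same pathways were read from 4 lists, which hold 64 genes, all tested. By limma-trend with adjustment over all tested genes, 0 of the 64 were called in either direction, and 14 had an unadjusted p under 0.05. In 17 of the 64 all Rag1-/- libraries were below all WT libraries, and in 3 all were above. Over all tested genes the shares are 11.6% with an unadjusted p under 0.05, 14.4% below and 3.98% above. After median-of-ratios rescaling the 4 lists, in the order given below, held 1, 7, 1 and 1 genes below and 3, 1, 2 and 0 above. With that scaling, 7.74% of all tested genes lay below and 7.96% above.

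Among 15 genes of RNA end processing and tRNA splicing, 0 were called, and Cnp and Elac1 (2 genes) had an unadjusted limma-trend p under 0.05. The median log2 difference was 0.02. Cnp encodes the myelin enzyme that opens cyclic phosphates of the kind RTCA makes. It was at 1428, 1498 and 1479 CPM in WT against 1665, 1754 and 1819 CPM in libraries labelled Rag1-/-, a log2 difference of 0.25 (SE 0.054, adjusted p = 0.268, limma-trend). All Rag1-/- libraries were higher. The myelin genes Mbp, Mog and Mag showed the same order, with all Rag1-/- libraries higher in 3 of 3, and their summed level was 8326 to 9817 CPM in WT and 10733 to 12584 CPM in Rag1-/-. The part of oligodendrocyte content in the difference of Cnp was not tested. Elac1, a tRNA 3' processing nuclease, averaged 41.9 ± 0.455 CPM in WT and 37.7 ± 1.70 CPM in Rag1-/- (SD, n = 3), a log2 difference of -0.15 (adjusted p = 0.354, limma-trend).

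Of the relatives and partners in that list, 0 were called. Rcl1, the ribosome biogenesis protein that is the relative of RTCA by sequence, had a log2 difference of -0.12 (SE 0.076), with the WT libraries at 12.8 to 13.0 CPM and the Rag1-/- libraries at 10.8 to 12.5 CPM. Rtraf, a further subunit of the ligase complex, had a log2 difference of 0.06 (SE 0.043). Tsen15 and Tsen54, which encode other subunits of the splicing endonuclease, had log2 differences of 0.01 and 0.04, and their groups overlapped. Angel2, a phosphatase of cyclic phosphate ends, averaged 29.1 ± 1.02 CPM in WT and 30.6 ± 0.313 CPM in Rag1-/- (SD, n = 3), a log2 difference of 0.08 (SE 0.049).

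Among the 26 genes that XBP1 is known to switch on for work in the ER, the median lay slightly below that of all genes. Of the 26, 0 were called after adjustment and 10 had an unadjusted limma-trend p under 0.05, a larger share than the 11.6% of all tested genes. In 10 of 26 (38.5%) all libraries labelled Rag1-/- were below all WT libraries, against 14.4% of all tested genes. In 1 (Ssr3) all were above, beside the 3.98% of all tested genes. After median-of-ratios rescaling, 7 of 26 (26.9%) lay below, against 7.74% of all tested genes. The median log2 difference was -0.08, against -0.05 over all tested genes. Ssr1, of the translocon-associated complex, was at 139, 142 and 139 CPM in WT and at 120, 126 and 128 CPM in Rag1-/-, with a log2 difference of -0.17 (SE 0.041, adjusted p = 0.312, limma-trend). Its groups did not overlap. The ER chaperone genes Hyou1 and Hspa5 had log2 differences of -0.18 (SE 0.048, adjusted p = 0.331, limma-trend) and -0.17 (SE 0.048, adjusted p = 0.335, limma-trend). Calr, the most abundant gene of the list, averaged 368 ± 22.3 CPM in WT and 352 ± 11.4 CPM in Rag1-/- (SD, n = 3), with overlapping groups. Pituitary transcripts were highest in WT replicate 3 and next in WT replicate 2, and their part in these values was not tested. The median log2 difference of the list was -0.09 without WT replicate 3 and -0.12 without WT replicate 2.

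The other arms of the unfolded protein response gave 0 of 16 called and 1 with an unadjusted limma-trend p under 0.05, Atf6. The median log2 difference was -0.07. Atf6, the ER membrane sensor of another arm, was at 48.0, 46.9 and 47.1 CPM in WT against 41.1, 44.3 and 44.0 CPM in libraries labelled Rag1-/-, a log2 difference of -0.14 (SE 0.047, adjusted p = 0.372, limma-trend). All Rag1-/- libraries were lower. Ppp1r15a, which encodes a phosphatase subunit that restores translation, had a log2 difference of -0.18 (SE 0.086). Atf4, the transcription factor of the arm of PERK, averaged 112 ± 3.48 CPM in WT and 110 ± 1.37 CPM in Rag1-/- (SD, n = 3), and its target Ddit3 overlapped between groups. Among 7 partners and other RNA substrates of IRE1, 0 were called and 1 had an unadjusted limma-trend p under 0.05. That gene was Map3k5, a kinase downstream of IRE1, at 19.6, 13.9 and 18.2 CPM in WT and at 11.9, 13.6 and 13.2 CPM in Rag1-/- (log2 difference -0.40, SE 0.12, adjusted p = 0.341, limma-trend). WT replicate 2 lay close to the Rag1-/- libraries. Bloc1s1, a known mRNA substrate of IRE1, had a log2 difference of 0.04 (SE 0.052), and Scara3, another, of -0.20 (SE 0.12). Hgsnat, a lysosomal enzyme gene and the most abundant of the 7, had a log2 difference of -0.09 (SE 0.072).

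**Figure D4:**
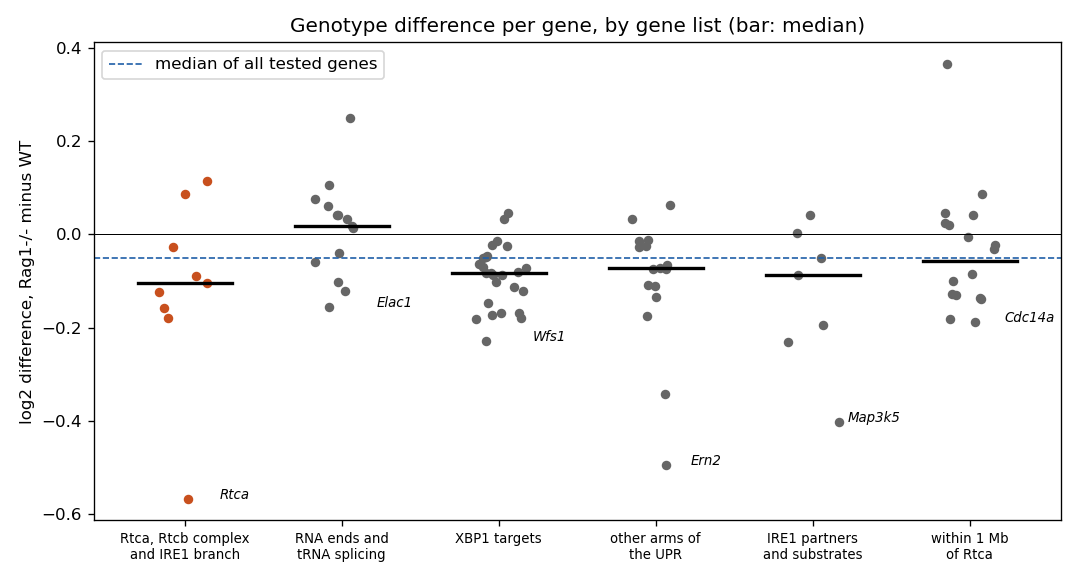
Log2 difference of Rag1-/- minus WT (vertical axis) for the 9-gene set (orange), 63 of the 64 genes of the pathway lists and 17 of the 18 tested neighbours of Rtca (grey), with the median of each whole list as a black bar and the median of all tested genes, -0.05, as a dashed line. The lowest gene drawn for each is named, and Rtca at -0.57 lies below every other gene shown.

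Its position was not used to choose Rtca, so its neighbours on chromosome 3 were tested. Of 19 other genes whose lower coordinates lie within 1 Mb of that of Rtca, 18 were tested, and 0 were called or had an unadjusted limma-trend p under 0.05. Dbt, an enzyme subunit of branched-chain amino acid breakdown, is the next gene on the side of the Rtca promoter, and the first bases of both, which lie on opposite strands, are 4.9 kb apart. It was at 18.9, 19.0 and 17.7 CPM in WT against 18.5, 19.4 and 18.6 CPM in libraries labelled Rag1-/-, and its groups overlapped. The log2 difference of Dbt was 0.02 (SE 0.057). Extl2, a glycosyltransferase gene, and Slc35a3, a nucleotide sugar transporter gene, had the smallest p-values of the 18, with log2 differences of -0.10 (adjusted p = 0.439, limma-trend) and -0.14 (adjusted p = 0.486, limma-trend). In both, all Rag1-/- libraries were below all WT libraries, which after median-of-ratios rescaling held for 0 of the 18. S1pr1, the most abundant neighbour, averaged 127 ± 4.95 CPM in WT and 125 ± 4.15 CPM in Rag1-/- (SD, n = 3). The highest of the 18 log2 differences was 0.36, for Lrrc39, and their median was -0.06. In the GENCODE annotation the noncoding gene Gm26530 lies across one end of Rtca on the opposite strand, and its reads cannot be told from those of Rtca where strand was not used.

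**Figure D5:**
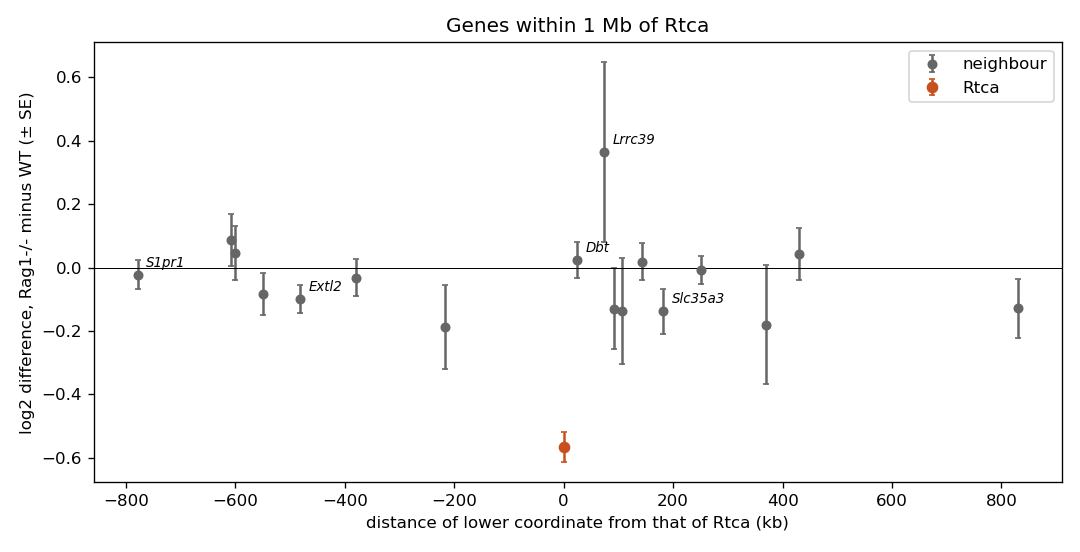
Log2 difference of Rag1-/- minus WT with its SE (vertical axis) for Rtca (orange) and 17 of the 18 tested genes within 1 Mb (grey), against the distance in kb between their lower coordinates and that of Rtca (for this minus-strand gene its end). Rtca lies at -0.57, below all neighbours drawn, with Dbt at 0.02 and Lrrc39 at 0.36.

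The genes whose pattern over the 6 libraries was most like that of Rtca, by Pearson correlation of log2(CPM + 0.1) among the 14032 other genes whose mean reached 1 CPM, were Tmed4 (r = 0.999), Cd59a (r = 0.994) and Herc6 (r = 0.994). With 6 libraries in 2 groups this mostly picks genes with a gap between the groups and little spread within them, and it is given as a description. Tmed4, a carrier of cargo out of the ER, was at 78.5 to 79.6 CPM in WT against 71.8 to 72.1 CPM in libraries labelled Rag1-/-. Cd59a, an inhibitor of complement, was at 25.9 to 27.7 CPM in WT and at 6.95 to 7.80 CPM in Rag1-/-. It lies on the chromosome of Rag1, at chr2:104095801-104115410 against chr2:101638252-101649532 for Rag1, and the part of this position was not tested. Herc6, an interferon-induced ubiquitin-like protein ligase, was at 3.31 to 3.49 CPM in WT and at 2.34 to 2.45 CPM in Rag1-/-. The sizes differ widely, with log2 differences of -0.14 for Tmed4, -1.84 for Cd59a and -0.49 for Herc6.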

How the data were processed

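Total RNA of 6 brainstems was sequenced on an Illumina HiSeq. The authors aligned reads to mm10 (RefSeq transcripts) with STAR 2.5.3a, counted reads per gene with Partek Flow, and deposited the counts as CPM, with a lowest value of 1e-04 in each library. Whether genes were filtered or reads counted by strand is not given in the sources used here. Of the low values, 85.9% to 87.6% were whole multiples of 1 read within 0.1 read, too few to rebuild the reads, so no count test was used. Depth is the inverse of that step. Interval ends are 1 base before the deposited stop.

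Log2(CPM + 0.1) was fitted with limma-trend (limma 3.58.1, R 4.3.3), without covariates, for all genes whose mean reached 0.1 CPM, and the code was tested on simulated data. The limma-trend method is the one the study's methods name. Members and lists were chosen with earlier results of these data known. By a rule, each list was named by its called genes, its 2 smallest p and its most abundant gene. Other genes were named for their role or position, or to state a count or range, after their values were seen. Each group is 3 mice. Transcript lengths are from GENCODE M21, promoters from RefSeq (GRCm38.p6), the assembly that mm10 names. Values of 3 genes of the lists and markers are not reported here.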

Additional observations from a re-analysis of the deposited data

How the results depend on the processing

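The log2 difference of Rtca kept its sign in all 16 alternative fits. It was -0.52 with quantile normalization, with median-of-ratios rescaling and with a term for high Xist, and -0.59 to -0.54 with 1 library left out. Genes past an adjusted p of 0.05, 8 in limma-trend, numbered 4 with pseudocount 0.01, 4 without a filter, 4 where the mean had to reach 1 CPM, 2 without the trend, 5 (3 lower, 2 higher) after quantile normalization, 0 with ordinary per-gene variance (1938 genes had an unadjusted p under 0.05 in limma-trend) and 134 with the Xist term, in which the WT arm is WT replicate 3 alone. It was 6 with median-of-ratios rescaling (3 lower, 3 higher). Leaving out 1 library gave 2 to 24 genes: 24 without WT replicate 3, 5 without Rag1-/- replicate 2, and 2 without Rag1-/- replicate 1 or without Rag1-/- replicate 3. Rtca was among the genes in 11 of the 16 fits, and not without the trend, with ordinary variance, with the replicate block or without Rag1-/- replicate 1 or 3. Nothing is read from these calls of Rtca, since the gene was chosen on this contrast. The causes of the changes in number were not tested. The deviations of samples with the same number correlated at 0.0926, -0.22 and -0.0183, and replicate 1 alone matched its own number best. With 3 libraries per group this cannot show whether the numbers mark a shared batch. The replicate block gave 3 genes. The pathway lists and the neighbours of Rtca had 0 called genes in all 16 alternative fits. A window of 2 Mb, tried in limma-trend as reported only, also gave 0. Chosen after the data were seen, the median of the XBP1 target list with 1 library left out ran from -0.12 to -0.07, and that of RNA end processing from -2.4e-05 to 0.03. Per kb, Tsen34 was at 39.6 CPM with its shortest transcript. Depth limits Ern1 most, with a counting error of 5.83% to 7.84%.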
